A study of Mus musculus with 8 samples.

Results

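The miR-17-92 and miR-106a-363 clusters are paralogous miRNA clusters, each transcribed as one long primary RNA that is cut into several mature miRNAs. The 10 members described here were chosen by name: miR-17, miR-18a, miR-19a, miR-20a, miR-19b and miR-92a of the first cluster, and miR-106a, miR-18b, miR-20b and miR-363, which only the second cluster encodes. Each name matched 1 mouse assay, so the members are 10 of the 750 miRNA assays measured. The assays ran by real-time PCR on CD34+/CD105- cells sorted from collagenase-digested mouse renal artery. CD34 marks endothelial and progenitor cells, and CD105 (endoglin) marks endothelial and mesenchymal stromal cells. There were 4 mice after bilateral clamping of the renal arteries and reperfusion, and 4 mice after sham surgery. The sources used here state no genotype, strain or age for either group, and no clamping or reperfusion time.

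The primary transcript of miR-17-92 is a target of MYC and E2F transcription factors and is abundant in dividing cells and in haematopoietic progenitors. Its products repress, among others, the cell-death factor Bcl2l11 (BIM) and E2F1. In mouse endothelial cells, miR-92a is known to restrain vessel growth after ischemia. The miR-106a-363 cluster arose by duplication of miR-17-92.

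The mature sequences show how closely the members resemble each other, which matters for reading assays that must separate them. They are those of RefSeq on GRCm38.p6, where all 10 members matched a mature miRNA of that name, and the arm was taken as the one without a # sign in the older naming of the assays. The seed, bases 2 to 8, by which a miRNA finds its targets, is in capitals. The members fall into 4 seed groups, the miR-17, miR-18, miR-19 and miR-92 groups in this order:
miR-17: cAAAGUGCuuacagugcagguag
miR-20a: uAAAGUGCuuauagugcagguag
miR-106a: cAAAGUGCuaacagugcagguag
miR-20b: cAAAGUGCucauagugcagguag
miR-18a: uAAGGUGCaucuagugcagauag
miR-18b: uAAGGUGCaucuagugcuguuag
miR-19a: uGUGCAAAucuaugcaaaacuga
miR-19b: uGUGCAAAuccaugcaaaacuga
miR-92a: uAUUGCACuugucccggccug
miR-363: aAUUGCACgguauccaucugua
miR-17 and miR-106a differ at 1 position (U10A, with miR-17 first and positions counted from the 5′ end). miR-19a and miR-19b also differ at 1 position (U11C, with miR-19a first), and miR-18a and miR-18b at 2 (A18U and A20U, with miR-18a first). miR-92a and miR-363 share the seed and differ in length, with 21 and 22 bases.

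In RefSeq on GRCm38.p6 the 6 hairpins of miR-17-92 lie at chr14:115043671-115044506 on the plus strand, a span of 836 bases. The 6 hairpins of miR-106a-363 lie at chrX:52741693-52742567 on the minus strand, a span of 875 bases. The annotated lncRNA gene Mir17hg contains the whole Mir92-1 hairpin and overlaps Mir19b-1 by 2 bases, and the lncRNA gene Kis2 overlaps Mir106a by 5 bases. The other hairpins share no base with these 2 genes as annotated. Such overlaps describe the annotated extents and do not show which primary RNA holds a hairpin. Mature miR-19b and miR-92a are encoded at 2 loci each, 1 per cluster, with identical mature sequences, so their assays measure both loci together. The other 8 members have 1 locus each.

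Each assay gives a threshold cycle (Ct); the more RNA a well holds, the lower its Ct. An assay counted as detected below Ct 35. Across the 8 mice, 75 to 163 miRNA assays were detected, with 82 to 98 in the ischemia/reperfusion mice and 75 to 163 in the sham mice. The reference Ct that the authors subtracted on the first card, which holds all 10 members, lay between 17.9 and 22.4. Sham mice 4 and 3 had the lowest reference Ct and the most detected assays of all 8, and sham mouse 2 had the highest reference Ct and the fewest detected assays. Endothelial miR-126-3p and miR-126-5p were detected in all 8 mice. Of the leukocyte markers, 3 of 4 were detected in at least 1 mouse, and of the epithelial and kidney tubule markers, 4 of 9. Both smooth muscle markers, both fibroblast markers and 2 of 3 striated muscle markers were detected in at least 1 mouse. Detection in all 8 mice held for 2 leukocyte markers, 1 smooth muscle marker and 1 fibroblast marker, and for 0 epithelial and kidney tubule or striated muscle markers. None of the 3 erythroid markers, miR-451, miR-144 and miR-486, and none of the 3 neural markers had a value under Ct 35 in any mouse. The summed level of the endothelial markers, in thousandths of the reference level, was 18.1 to 38.0 in ischemia/reperfusion mice and 37.7 to 113 in sham mice. That of the leukocyte markers was 0.788 to 47.4 in ischemia/reperfusion mice and 1.52 to 18.5 in sham mice, and that of the fibroblast markers 0.427 to 2.27 and 0.338 to 15.6, in the same order. The widest range was that of the epithelial and kidney tubule markers, 0 to 92.3 in ischemia/reperfusion mice and 0 to 364 in sham mice. Of these, miR-194 was detected in 0 ischemia/reperfusion and 2 sham mice, miR-192 in 0 and 1, and miR-203 and miR-204 in 2 and 3 each. The lowest Ct was 20.5 for miR-194, 29.8 for miR-192, 26.2 for miR-203 and 27.2 for miR-204, so a single well can set most of a sum. miR-200a, miR-200b, miR-200c, miR-141 and miR-429 were detected in no mouse. The part of these cell types in the results that follow was not tested. In sorted cells measured in bulk, fewer cells of a type and less RNA per cell cannot be told apart.

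The members detected in all mice lay at the 3′ end of the clusters. Of these, miR-19b and miR-92a are also the members with 2 loci, so for them position and number of loci cannot be told apart. The 3′ members miR-19b, miR-92a and miR-363 were detected in all 8 mice, as were 54 of all 750 miRNA assays (7.2%). For miR-363 this depends on the limit, since its Ct lay between 30.8 and 33.1. With the limit at Ct 32, it would count as detected only in ischemia/reperfusion mouse 1 and sham mice 2 and 3. The 5′ members miR-18a, miR-106a, miR-18b and miR-20b had no Ct in any mouse, as part of the 563 assays (75.1%) detected in none. miR-17, miR-19a and miR-20a were detected in some mice only, as part of the 133 such assays (17.7%). On chromosome 14 the 4 hairpins at the 5′ end were detected in 0 to 5 mice and the last 2 in 8. On the X chromosome the miRNAs of the first 3 hairpins were detected in 0 mice and those of the last 3 in 8. Since miR-19b and miR-92a are encoded at both loci and may be read from chromosome 14, miR-363 was the only miRNA encoded by the X cluster alone that was detected. Ct values of different assays are not levels on one scale, and an undetermined well is an upper limit on RNA that depends on the assay.

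**Figure D1:**
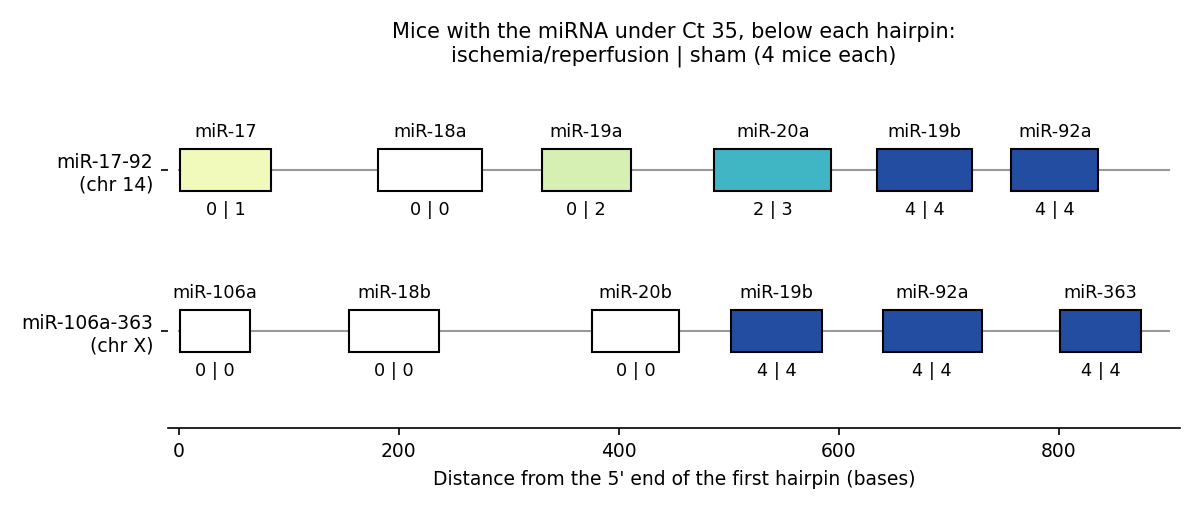
Hairpins of both clusters drawn to scale from the 5′ end of the first hairpin, with the number of ischemia/reperfusion mice and then of sham mice (4 each) in which the mature miRNA was under Ct 35 written below each box and darker fill for more mice. The hairpins at the 3′ end are detected in all 8 mice, and the miR-19b and miR-92a counts are the same values at both loci because 1 assay reads both.

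Among the partly detected members, miR-20a, which shares the miR-17 seed, had Ct 27.8 and 31.9 in ischemia/reperfusion mice 1 and 2 and no Ct in mice 3 and 4. In sham mice 1, 3 and 4 its Ct was 31.0, 25.8 and 25, and sham mouse 2 had no Ct. The detected values of the 2 groups overlap. miR-19a, a member of the miR-19 group, had no Ct in any ischemia/reperfusion mouse. In sham mice its Ct was 30.5 in mouse 4, 34.9 in mouse 3 and 38.2 in mouse 1, the last of these above the detection limit. miR-17, after which its seed group is named, had no Ct in the 4 ischemia/reperfusion mice and in sham mice 1 to 3, and Ct 25.9 in sham mouse 4.

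All 3 partly detected members were found in fewer ischemia/reperfusion mice than sham mice: miR-20a in 2 against 3, miR-19a in 0 against 2 and miR-17 in 0 against 1. The same direction held for 107 of the 133 assays detected in 1 to 7 mice (80.5%), so the members followed the direction of most assays. Fisher's exact test gave a two-sided p of 0.429 for miR-19a and of 1 for miR-17 and miR-20a. After Benjamini-Hochberg adjustment, 0 of the 133 assays (0%) passed 0.05, and at an unadjusted p under 0.05 there were also 0 (0%). With 4 mice against 4, the smallest p this test allows is 0.0286, and it needs an assay detected in exactly 4 mice from a single group. Any other split gives a p over 0.05. miR-17, miR-19a and miR-20a were detected in 1, 2 and 5 mice, so none of them could pass. For miR-17 no other p was possible, and for miR-19a 0.429 was the smallest possible. The test therefore cannot decide whether detection of these members differed between groups. miR-17 and miR-19a were under the limit only in sham mice 4 and 3, the mice with the lowest reference Ct, 17.9 and 19, where 6 and 5 of the 10 members were detected. The other 6 mice, with 3 or 4 members, had reference Ct between 20.5 and 22.4, and miR-20a was read in 3 of them. The part of RNA input in these detection counts was not tested.

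For miR-17 the step between mice was abrupt. Sham mouse 3 differed from sham mouse 4 by 1.06 cycles in the reference Ct, by 0.80 cycles in the Ct of miR-20a and by 0.49 cycles in that of miR-19b. In sham mouse 3 miR-17 nevertheless had no Ct, beside Ct 25.9 in sham mouse 4. miR-19a, in turn, was 4.47 cycles higher in sham mouse 3 than in sham mouse 4. An undetermined well beside a Ct under 30 in another mouse was found in miR-17 and miR-20a and in 59 of the 133 partly detected assays (44.4%).

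**Figure D2:**
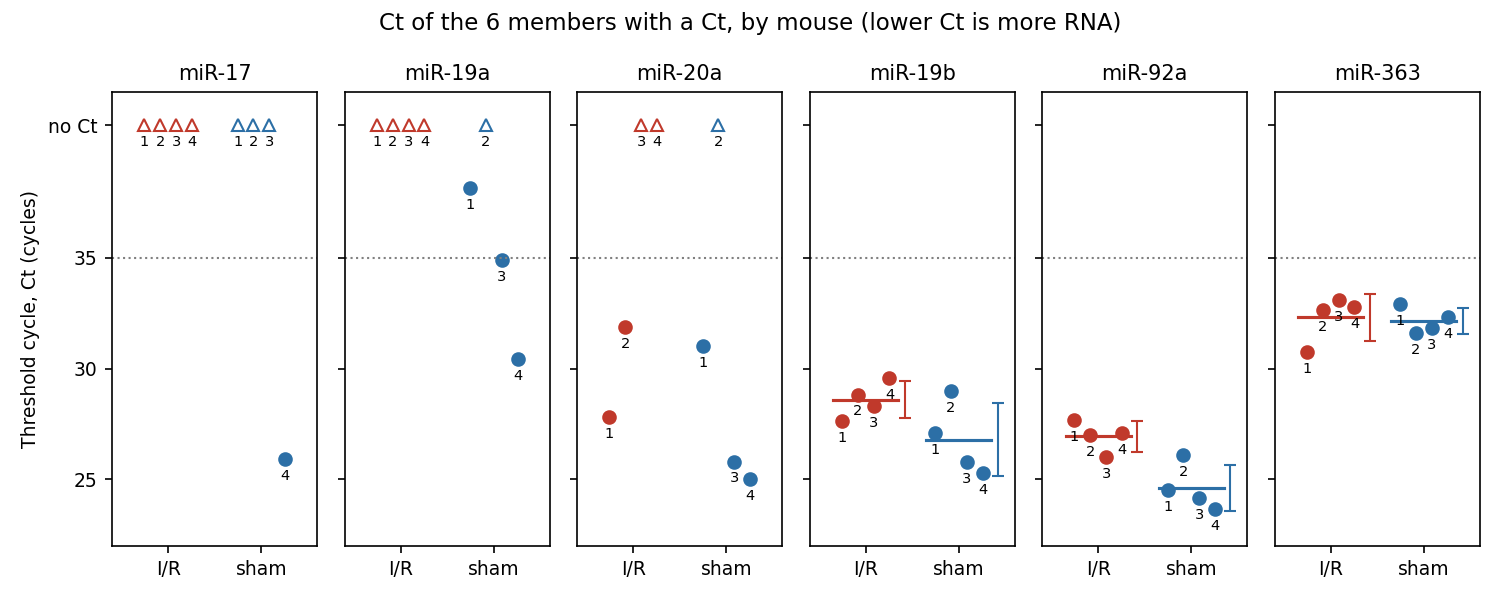
Ct in cycles of the 6 members with any Ct, for ischemia/reperfusion (I/R, red) and sham (blue) mice, numbered as in the labels. Open triangles mark wells with no Ct, the dotted line is Ct 35, and bars with whiskers show the mean and SD of 4 mice where all were detected. For miR-92a the ischemia/reperfusion mice lie between 26 and 27.7 and the sham mice between 23.7 and 26.1.

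The 3 members detected in all mice could be compared between groups by level. Deposited delta Ct values are the Ct minus the reference, in cycles, so a higher delta Ct means less RNA, and the log2 difference has the opposite sign: it is positive where RNA was higher after ischemia/reperfusion. Of the 72 miRNAs detected in at least 3 mice of each group, limma with Benjamini-Hochberg adjustment placed 0 (0%) under 0.05, members included, and 10 (13.9%) had an unadjusted p under 0.05, none of them a member. The median log2 difference of the 72 was -0.80.

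miR-92a, the member known to restrain angiogenesis, had delta Ct 6.65, 4.61, 5.48 and 5.43 in ischemia/reperfusion mice 1 to 4. In sham mice 1 to 4 its delta Ct was 3.88, 3.64, 5.16 and 5.74. Relative to the sham mean, ischemia/reperfusion mice 1, 3 and 4 had less miR-92a and mouse 2 was at the mean. The groups overlap, since sham mice 3 and 4 lay within the ischemia/reperfusion range. The group means were 5.54 ± 0.84 and 4.61 ± 1.01 cycles (SD, n = 4 each), ischemia/reperfusion first. This is a log2 difference of -0.93 ± 0.71 (SE), with a 95% interval of -2.55 to 0.68 and a limma adjusted p of 0.552. The difference lies close to the median of all 72 miRNAs.

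miR-19b, the member of the miR-19 group encoded in both clusters, had delta Ct 6.63, 6.46, 7.80 and 7.92 in ischemia/reperfusion mice 1 to 4. Its delta Ct in sham mice 1 to 4 was 6.44, 6.55, 6.79 and 7.37. Mice 1 and 2 of the ischemia/reperfusion group lay inside the sham range, and mice 3 and 4 above it. The means were 7.20 ± 0.76 in ischemia/reperfusion mice and 6.79 ± 0.41 cycles in sham mice (SD, n = 4 each). The log2 difference was -0.41 ± 0.58 (SE; 95% interval -1.74 to 0.92; limma adjusted p = 0.666). Lower means, like those of miR-92a and miR-19b, were found for 49 of the 72 miRNAs (68.1%).

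miR-363, the last hairpin of the X cluster and a carrier of the miR-92 seed, had delta Ct 9.73, 10.3, 12.6 and 11.1 in ischemia/reperfusion mice 1 to 4. It had delta Ct 12.3, 9.15, 12.8 and 14.4 in sham mice 1 to 4. Sham mouse 2 had the most miR-363 relative to the reference of all 8 mice and sham mouse 4 the least, so the ischemia/reperfusion values lie inside the sham range. The means were 10.9 ± 1.23 in ischemia/reperfusion mice and 12.2 ± 2.19 cycles in sham mice (SD, n = 4 each). The log2 difference was 1.24 ± 1.14 (SE; 95% interval -1.35 to 3.82; limma adjusted p = 0.587). Higher means were found for 23 of the 72 miRNAs (31.9%), and this one ranked 70 of 72 from the lowest difference. Without sham mouse 2 the difference was 2.24 (limma unadjusted p = 0.0346, adjusted p = 0.237), and without sham mouse 4 it was 0.50 (adjusted p = 0.890). None of the 3 members had groups that did not overlap in delta Ct, as 5 of the 72 miRNAs did (6.94%).

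An exact two-sided permutation test over the 70 assignments of mice gave unadjusted p of 0.200 for miR-92a, 0.314 for miR-19b and 0.371 for miR-363. The intervals allow changes of over 1 log2 unit in at least 1 direction for each member, so the absence of a call does not show that the groups were alike. The limma p-values set a mean difference against a spread between mice that is moderated over all tested miRNAs. The permutation p-values set it against the other assignments of mice.

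What differed between the members was how their Ct moved with the reference. Over the 8 mice the reference Ct spanned 4.51 cycles. The Ct of miR-19b spanned 4.29 cycles and that of miR-92a 3.99, while that of miR-363 spanned 2.33, beside a median span of 5.23 cycles for the 54 miRNAs detected in all mice. As a description over 8 mice that share one reference per mouse, Pearson's r between the member's Ct and the reference Ct was 0.92 for miR-19b, 0.79 for miR-92a and -0.0045 for miR-363, with Spearman's rho of 0.86, 0.74 and -0.19. Without the 2 mice whose reference Ct lay farthest from the median, r was 0.69, 0.36 and -0.21. The median r of the 54 miRNAs was 0.80, and miR-363 ranked 52 of 54 from the highest.

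**Figure D3:**
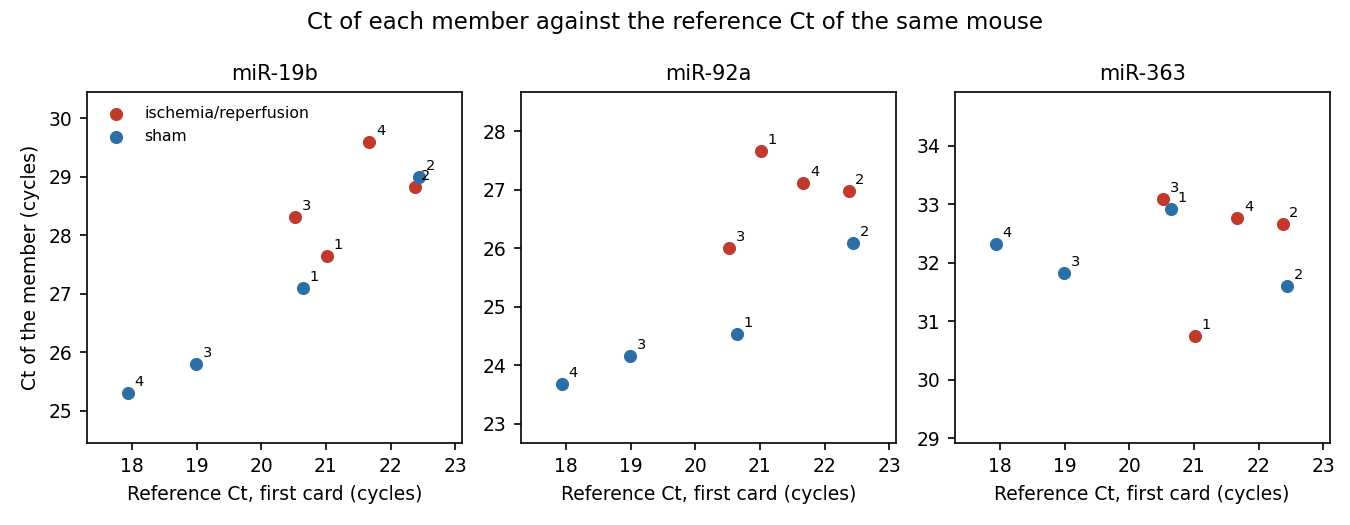
Ct of miR-19b, miR-92a and miR-363 in cycles against the reference Ct of the same mouse in cycles, with ischemia/reperfusion mice in red, sham mice in blue and mouse numbers beside the points. The vertical axes span the same number of cycles, and miR-363 stays between 30.8 and 33.1 while the reference Ct goes from 17.9 to 22.4.

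The raw Ct values show the same members without the reference. miR-363 had Ct 30.8, 32.7, 33.1 and 32.8 in ischemia/reperfusion mice 1 to 4, and 32.9, 31.6, 31.8 and 32.3 in sham mice 1 to 4. Its means were 32.3 ± 1.06 in ischemia/reperfusion mice and 32.2 ± 0.59 in sham mice (SD, n = 4 each). Without a reference its log2 difference was -0.15 ± 0.78 (SE; limma adjusted p = 0.910), the opposite sign of the value against the reference. The reference Ct itself was 21.4 ± 0.80 in ischemia/reperfusion mice and 20.006 ± 1.97 in sham mice (SD, n = 4 each). Its part in the miR-363 difference is fixed by the subtraction.

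miR-92a had raw Ct 27.7, 27.0, 26 and 27.1 in ischemia/reperfusion mice 1 to 4, and 24.5, 26.1, 24.2 and 23.7 in sham mice 1 to 4. The groups met only at ischemia/reperfusion mouse 3 and sham mouse 2, which overlapped by 0.084 cycles. In raw Ct the groups did not overlap for 10 of the 72 miRNAs (13.9%). Without a reference the miR-92a log2 difference was -2.33 ± 0.79 (SE), with a limma unadjusted p of 0.0163 and an adjusted p of 0.118. An unadjusted p under 0.05 was then reached by 21 of the 72 (29.2%), and a lower mean by 65 (90.3%). Raw Ct also carries the amount of RNA loaded, which the sources used here do not give.

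miR-19b had raw Ct 27.6, 28.8, 28.3 and 29.6 in ischemia/reperfusion mice 1 to 4, and 27.1, 29.0, 25.8 and 25.3 in sham mice 1 to 4. Its log2 difference without a reference was -1.80 ± 0.96 (SE; limma adjusted p = 0.251). With the average of the 54 always-detected miRNAs as the reference, the log2 differences were -0.63 for miR-92a, -0.11 for miR-19b and 1.54 for miR-363. Against the control RNA snoRNA202, which was read on the second card, they were -1.62, -1.09 and 0.55 in the same order. miR-92a and miR-19b thus kept a lower mean with each reference used, and miR-363 kept a higher mean with each reference but not in raw Ct. No adjusted p of a member was under 0.05 with any of them. The snoRNA202 values also hold differences between cards, since the members were read on the first. The mean deposited reference Ct was 21.4 on the first and 21.9 on the second card in ischemia/reperfusion mice. In sham mice it was 20.006 and 20.9. The part of the card in these values was not tested.

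**Figure D4:**
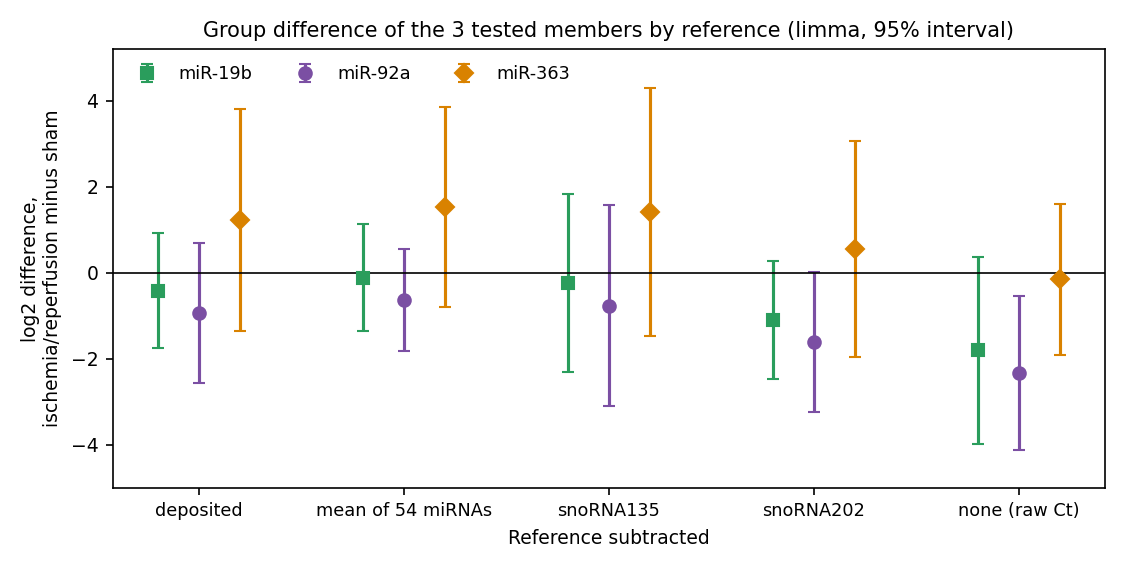
Log2 difference, ischemia/reperfusion minus sham, of the 3 tested members with its 95% limma interval, for each reference subtracted from the Ct. All intervals include 0 except that of miR-92a in raw Ct, which runs from -4.11 to -0.54.

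Differences between members within a mouse hold no reference, because all were measured on the same card. They were not tested, and their size does not rank the miRNAs by abundance, since assays differ in efficiency. The pair with a shared seed, miR-363 minus miR-92a, was 3.09, 5.69, 7.08 and 5.66 cycles in ischemia/reperfusion mice 1 to 4, and 8.40, 5.51, 7.66 and 8.63 cycles in sham mice 1 to 4. The mean was 5.38 ± 1.67 in ischemia/reperfusion mice and 7.55 ± 1.42 in sham mice (SD, n = 4 each). The groups overlap through sham mouse 2 alone, which lay below ischemia/reperfusion mice 2, 3 and 4. The difference miR-92a minus miR-19b, between neighbouring hairpins in both clusters, was -1.66 ± 1.15 in ischemia/reperfusion mice and -2.18 ± 0.66 in sham mice (SD, n = 4 each). It was 0.015 in ischemia/reperfusion mouse 1 and between -2.91 and -1.63 in all but that mouse.

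The pair that differs by 1 base, miR-19a and miR-19b, could be set side by side in 2 mice only. miR-19a minus miR-19b was 9.14 cycles in sham mouse 3 and 5.15 cycles in sham mouse 4. miR-20a minus miR-19b was 0.15 and 3.06 cycles in ischemia/reperfusion mice 1 and 2, and 3.93, 0.014 and -0.30 cycles in sham mice 1, 3 and 4. In sham mouse 4, where both were read, miR-20a was 0.92 cycles below miR-17.

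**Figure D5:**
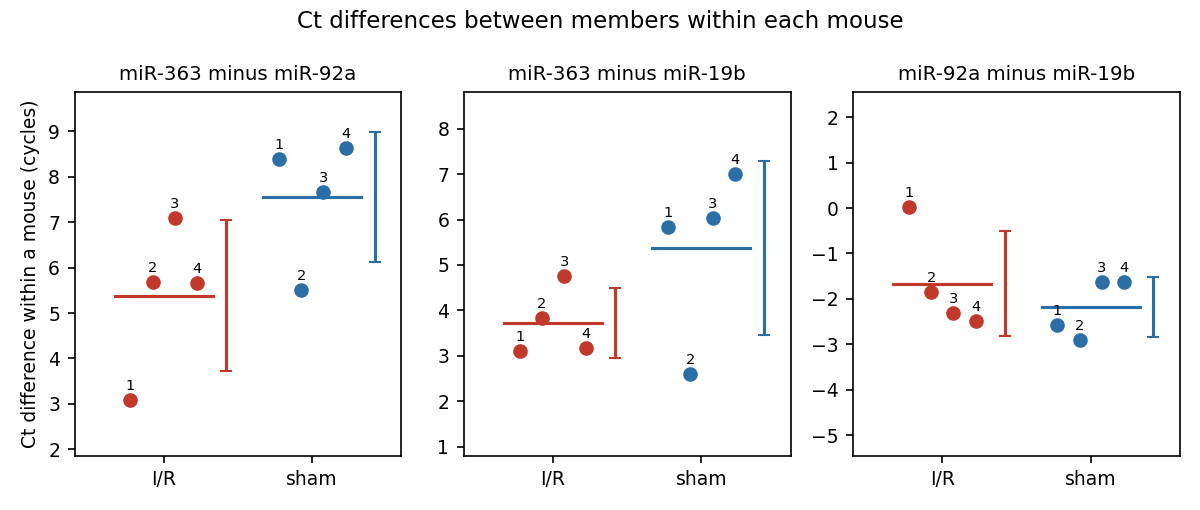
Ct differences in cycles between members within each mouse, for ischemia/reperfusion (I/R, red) and sham (blue) mice numbered as in the labels, with bars for the mean and whiskers for the SD of 4 mice. For miR-363 minus miR-92a, ischemia/reperfusion mice lie between 3.09 and 7.08 and sham mice between 5.51 and 8.63.

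For miR-20a, the fold of ischemia/reperfusion over sham in the authors' deposited table is 24039. The deposited delta Ct of the wells with no Ct was -20.5 in ischemia/reperfusion mouse 3 and -21.7 in mouse 4, which equals Ct 0 minus the reference. Keeping these 2 wells gave the deposited fold again, and leaving them out gave a fold of 0.95 from 2 ischemia/reperfusion and 3 sham wells. On the log2 scale the difference without them was -0.07 ± 1.48 (SE; 95% interval -3.62 to 3.48; limma adjusted p = 0.974, with miRNAs detected in at least 2 mice per group). With Ct 35 in place of values not detected it was -1.83 ± 1.94 (SE). For the 3 members with a Ct in every mouse, the authors' deposited table gives folds of 0.523 for miR-92a, 0.751 for miR-19b and 2.36 for miR-363, the same as recomputed here. It gives no fold for the other 6 members.

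By seed group, with relatives encoded elsewhere included, detection was uneven. Of the 6 assays with the miR-17 seed, 1 was detected in all mice, 2 in some and 3 in none. The 1 was miR-106b, a member of the third paralogous cluster, whose Ct lay between 26.4 and 27.7 and whose log2 difference was 0.90 ± 1.05 (SE; limma adjusted p = 0.626). Both miR-18 assays had no Ct. Of the 5 assays with the miR-92 seed, 3 were detected in all mice: miR-92a, miR-363 and miR-25, another product of the third cluster, at 1.14 ± 0.76 (SE; limma adjusted p = 0.510). Without a reference miR-106b and miR-25 turned to -0.49 and -0.25. miR-367, a stem-cell miRNA with the miR-92 seed, was under Ct 35 in 1 of 4 ischemia/reperfusion and 3 of 4 sham mice, with Ct no lower than 33.2. miR-302a, a further listed relative, was under Ct 35 in 1 of 4 ischemia/reperfusion and 2 of 4 sham mice, with a lowest Ct of 31.5. Of 13 listed relatives with an assay, 9 were not detected, among them miR-93 and miR-32. The 10 assays for the other arm of the members' hairpins had no Ct in any mouse.

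The miRNAs whose profile was most like that of each member were taken from the 51 other miRNAs detected in all 8 mice, by Pearson's r of minus delta Ct centred on the mouse mean. The closest to miR-92a were miR-26a (r = 0.76) and miR-673 (r = 0.53), with raw Ct r of 0.98 and -0.13, so the likeness to miR-673 turned without centring. The closest to miR-19b were miR-150 (r = 0.58) and miR-152 (r = 0.58, with a Spearman's rho of 0.12), with raw Ct r of 0.60 and 0.87. For miR-363 they were miR-188-5p (r = 0.98) and miR-106b (r = 0.93). Like miR-363, both had a small span of raw Ct, 1.69 cycles for miR-188-5p and 1.32 for miR-106b, and in raw Ct their r with miR-363 was 0.61 and 0.51. Centring adds the same mouse mean to all of them. Among the members, centred r was -0.44 between miR-19b and miR-92a, and in raw Ct it was 0.82. These are descriptions over 8 mice of both groups.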

How the data were processed

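RNA of sorted cells from 8 mice, 4 per group, was read by real-time PCR. The authors deposited raw Ct, delta Ct (cycles, thus a log2 scale) and folds. The deposited delta Ct was the Ct minus 1 reference per sample and card, in every well with a Ct. The deposited fold is a ratio, ischemia/reperfusion over sham, and for the members it equals 2 raised to the sham mean minus the ischemia/reperfusion mean of the deposited delta Ct. The sources used here name neither the reference RNA nor the number of cells. In 13 wells of 9 assays the deposited delta Ct stood without a Ct, and these were treated as missing.

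A value under Ct 35 counted as detected, repeated wells were averaged, and the 7 control assays were not tested. The 72 miRNAs detected in at least 3 mice of each group were tested together with limma 3.58.1 in R 4.3.3 (two-sided, Benjamini-Hochberg), a fit tested on simulated data. Detection and exact permutation tests used scipy 1.17.1. Named are all 10 members, listed relatives where detected and the 2 most alike miRNAs per member. The members and lists were chosen with earlier results of these data known. Alternatives changed the detection limit, the reference, the filter, the handling of missing wells and the mice used. Precision rests on 4 mice per group.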

Additional observations from a re-analysis of the deposited data

How the results depend on the processing

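Only alternatives that change the reference or leave out a mouse can move the difference of a member with a Ct in every mouse. In these 12, miR-92a and miR-19b kept a lower mean. Over all alternatives, adjusted p lay between 0.118 and 0.806 for miR-92a and between 0.251 and 0.923 for miR-19b. miR-363 kept a higher mean in 11 of its 12 and turned to -0.15 in raw Ct, which the subtraction itself accounts for; with the limit at Ct 32 it was not tested. When each mouse was left out, the log2 difference ranged from -1.31 to -0.57 for miR-92a (-0.57 without ischemia/reperfusion mouse 1), from -0.66 to -0.17 for miR-19b and from 0.50 to 2.24 for miR-363. miR-20a ranged from -1.44 to 1.30, turning to 1.30 without ischemia/reperfusion mouse 2, to 0.57 without sham mouse 3 and to 0.44 without sham mouse 4, and it was 14.55 with the wells lacking a Ct kept at Ct 0 and -3.08 with Ct 40 in undetermined wells. The share of mice with miR-17, miR-19a or miR-20a detected was lower after ischemia/reperfusion in every alternative run (without sham mouse 4, miR-17 was detected in no mouse and has no value). Fisher's exact test gave 0 adjusted calls in each, but with so few mice it had little room to give any.

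Over all tested miRNAs, 1 passed the adjusted limma threshold, no member, with any Ct counted as detected, with Ct 35 or with Ct 40 for missing values, and the count was 0 to 1 when each mouse was left out (1 without sham mouse 1 and without sham mouse 2). Of the 72 miRNAs tested, 10 had a limma unadjusted p under 0.05. This became 4 of 49 tested with the limit at Ct 32, 21 of 114 with Ct 35 and 18 of 114 with Ct 40. With 72 tested, the count was 21 in raw Ct, 20 against snoRNA202 and 2 by the exact permutation test. It was 4 against snoRNA135 (an alternative chosen after seeing the data, like the wells kept at Ct 0). When each mouse was left out, it was 5 to 13 (5 without sham mouse 3 and without sham mouse 4). The cause of these shifts was not tested. With mouse number as a replicate block, the log2 differences were the same, with 0 adjusted and 8 unadjusted calls. The limma adjusted p was then 0.499 for miR-92a, 0.634 for miR-19b and 0.499 for miR-363. Deviations of same-numbered mice correlated at r from -0.38 to 0.020, and those of differently numbered mice at r from -0.26 to 0.55. The labels name no pairing, and so few pairs cannot show whether same-numbered mice shared a day or run.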
